A study of Mus musculus with 18 samples.

Results

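The 7 genes described here belong to the MHC class II antigen presentation pathway and were taken by symbol from the 34896 genes of the expression table: H2-Aa, H2-Ab1, H2-Eb1, Cd74, H2-DMa, H2-DMb1 and Ciita. Their mRNA was followed by RNA-seq in granulocyte-monocyte progenitors (GMP), pre-neutrophils (preNeu) and mature neutrophils (matNeu), with 3 libraries of each cell type sorted from the bone marrow of wild type C57BL/6 mice aged 6 to 12 weeks. The same genes were searched for peaks of CHD4, the ATPase of the nucleosome-remodeling and deacetylase complex NuRD, in wild type (WT) and Gfi1-/- GMPs of the same background and age, and for peaks of the histone mark H3K4me2 in the 3 WT cell types, with 1 library per list. GFI1 is a zinc finger repressor, and Gfi1-/- denotes the loss of both copies of its gene. RNA of Gfi1-/- cells was not analysed here, so the genotype of that CHD4 library rests on its label. The GMPs were sorted from marrow depleted of cells carrying B220, CD11b and other lineage proteins, whereas preNeu and matNeu cells were sorted as Mac-1+ Gr-1+ cells, without such a depletion being described.

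MHC class II molecules display peptides from engulfed proteins to CD4+ T cells and are made by B cells, dendritic cells and macrophages, while neutrophils are known to acquire them mainly when stimulated. H2-Aa and H2-Ab1 encode the alpha and beta chains of the I-A molecule and H2-Eb1 the beta chain of I-E, which C57BL/6 mice cannot complete because they carry no working alpha chain gene for it. The invariant chain Cd74 fills the groove of a new class II molecule and leads it to the endosome, the H2-DM dimer (H2-DMa, H2-DMb1) then exchanges the remaining Cd74 fragment for a peptide, and Ciita is the coactivator that binds the factors assembled on the X and Y boxes of class II promoters.

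5 of the 7 genes lie within 197 kb of chromosome 17 (GRCm38), in the order H2-DMa, H2-DMb1, H2-Ab1, H2-Aa, H2-Eb1. By the GENCODE annotation, H2-DMa spans chr17:34119541-34139101 and H2-DMb1 chr17:34153072-34160230, both on the plus strand. H2-Ab1 spans chr17:34257689-34269419 on the plus strand, H2-Aa chr17:34282744-34287823 on the minus strand and H2-Eb1 chr17:34305867-34316674 on the plus strand. Ciita lies on another chromosome, at chr16:10480059-10528418 on the plus strand, and Cd74 on yet another. H2-DMa overlaps Brd2 and Ciita overlaps Dexi on the opposite strand, and reads of overlapping genes may be split between them.

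The promoter stretches that hold the X and Y boxes are shown because they are the part of these genes through which Ciita is known to act. RefSeq promoter windows on GRCm38.p6, from 250 bases before to 50 bases after the start, were matched by symbol for 4 of the 7 genes (H2-Aa, H2-Eb1, H2-DMb1, and H2-DMa with 2 starts). Entries for H2-Ab1, Cd74 and Ciita were not used. The H2-Aa stretch is chr17:34287824-34287943 on the minus strand and the H2-Eb1 stretch chr17:34305747-34305866 on the plus strand, each the 120 bases before the RefSeq start and outside annotated exons. For H2-DMb1 the annotated exon begins further upstream, so only the 2 matches with their flanks are given, at chr17:34153086-34153114 and chr17:34153118-34153146 on the plus strand. Capitals mark matches to the X box core (CTAG, any 2 bases, AC, any 1 base and GATG), the palindrome TGACGTCA of the adjoining X2 box, the Y box core CTGATTGG, and the inner ATTGG or its complement CCAAT, which the Y box core contains; both strands were searched.
H2-Aa: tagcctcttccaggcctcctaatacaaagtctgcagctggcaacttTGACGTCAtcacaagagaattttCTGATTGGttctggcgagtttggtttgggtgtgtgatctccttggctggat
H2-Eb1: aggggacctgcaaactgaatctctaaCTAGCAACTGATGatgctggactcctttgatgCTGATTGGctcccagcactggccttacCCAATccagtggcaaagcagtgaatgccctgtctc
H2-DMb1 X box: aggtttacCTAGTAACTGATGatgctagg
H2-DMb1 Y box: attcactcagtgATTGGtctgacctgcct

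The X box core was found in H2-Eb1 at position -94 and in H2-DMb1 at position -97 from the start, and 20 of 32851 mouse promoter windows (0.0609%) hold it. The Y box core was found in H2-Eb1 at -62 and in H2-Aa at -51, against 4.1% of all windows. In H2-DMb1 only the inner ATTGG matched, at -61, which 37.4% of windows hold. H2-Aa held the TGACGTCA palindrome at -74, a match present in 1.79% of windows. Neither window of H2-DMa held the X or Y core, and ATTGG appeared there at -198 from the second start (position 34125518) alone. Annotated starts of H2-DMa further downstream, at 34135628, 34135654 and 34137028, lay outside both windows and were not searched.

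Expression values are given in TPM, a measure of transcript abundance scaled to transcript length and to a fixed total per library, so sequencing depth is not known from them. Each library held 10754 to 12256 genes at 1 TPM or more. Pearson's r between libraries of 1 cell type was 0.96 to 0.971 across genes on the log2 scale. For 13 of 18 samples the cell type field of the labels names another cell type than the title, and the titles were used. The summed TPM of 6 GMP markers was 45267 to 47154 in libraries titled GMP, 8320 to 9360 in preNeu and 9.32 to 32.7 in matNeu, that of 6 preNeu markers was highest in preNeu (145613 to 171432) and that of 6 matNeu markers highest in matNeu (40719 to 63919), so the titles fit the markers. Nothing in the labels says that the 3 libraries of a cell type came from separate animals, and the p-values therefore measure only the spread between these samples.

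In preNeu cells, the class II chains and the invariant chain rose while H2-DM fell. Against GMPs, H2-Aa, H2-Ab1, H2-Eb1, Cd74 and Ciita were higher and H2-DMa and H2-DMb1 lower, each past an adjusted p of 0.05 in limma. In all, 7 of 7 genes were called, against 59.0% of the 13061 genes tested, with 5 of 7 higher, against 14.7%, and 2 of 7 lower, against 44.3%. The same genes were called in the same directions in matNeu cells against GMPs, where 76.9% of all genes were called, 22.8% higher and 54.1% lower. Both contrasts use the same GMP libraries. In bulk libraries, fewer cells of a type and less RNA per cell cannot be told apart. All 7 genes passed the filter of 1 TPM in 3 libraries, but Ciita did so with exactly 3 libraries, all of them neutrophil libraries, so its difference from GMPs was partly set by the filter.

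**Figure D1:**
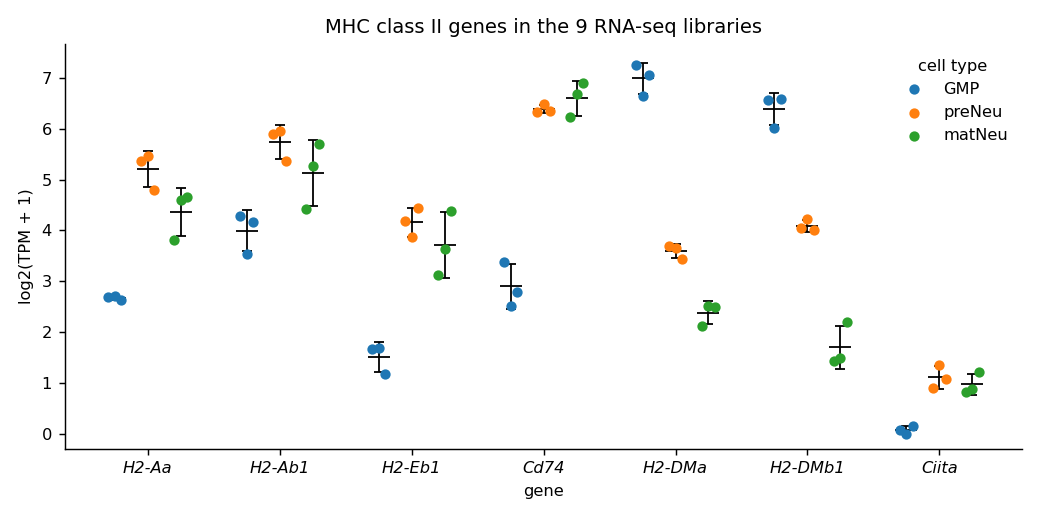
Expression of the 7 MHC class II genes on the log2(TPM + 1) scale in GMP, preNeu and matNeu libraries. Each point is 1 library, and bars give the mean and SD of 3 libraries. H2-Aa, H2-Ab1, H2-Eb1, Cd74 and Ciita sit lowest in GMPs, and H2-DMa and H2-DMb1 sit highest there and lowest in matNeu.

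Among the antigen-binding chains, H2-Aa was measured at 5.41, 5.51 and 5.18 TPM in the GMP libraries, at 40.2, 43.1 and 26.9 TPM in preNeu and at 13.0, 23.4 and 24.3 TPM in matNeu. None of the 3 groups overlapped, with GMPs lowest and preNeu highest. The log2 change was 2.54 ± 0.27 (SE, limma adjusted p = 2.13e-05) in preNeu against GMP, or 6.84-fold between mean TPM values, and 1.69 ± 0.27 (adjusted p = 0.000161) in matNeu against GMP. From preNeu to matNeu it fell by 0.85 on the log2 scale (adjusted p = 0.0177). That call was lost without preNeu replicate 1 (adjusted p = 0.0599), without preNeu replicate 2 (0.0697) and without matNeu replicate 1 (0.0677), and also under median-of-ratios scaling (0.150) and quantile normalization (0.359).

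H2-Ab1, the partner chain of H2-Aa, was the most abundant class II chain in each cell type by mean TPM. Its 3 libraries read 18.5, 10.6 and 16.9 TPM in GMPs, 58.7, 61.3 and 40.1 TPM in preNeu and 20.3, 37.5 and 50.8 TPM in matNeu. The GMP libraries were all lowest, and preNeu and matNeu overlapped. H2-Ab1 was 3.48-fold higher in preNeu than in GMPs (log2 change 1.75 ± 0.33 SE, limma adjusted p = 0.000973) and 2.36-fold higher in matNeu than in GMPs (1.13 ± 0.33, adjusted p = 0.00877). Between preNeu and matNeu the difference of -0.62 was not called (adjusted p = 0.126, 95% interval -1.34 to 0.11).

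H2-Eb1 was the least abundant of the 3 chains. It read 2.15, 2.21 and 1.24 TPM in GMPs, 17.2, 13.6 and 20.7 TPM in preNeu and 7.66, 11.4 and 20.0 TPM in matNeu. The GMP libraries were lowest, and matNeu spanned a wider range than preNeu and overlapped it. It was 9.20-fold higher in preNeu than in GMPs (log2 change 2.66 ± 0.34 SE, limma adjusted p = 6.75e-05) and 6.98-fold higher in matNeu than in GMPs (2.21 ± 0.34, adjusted p = 0.00011). The preNeu to matNeu difference of -0.45 was not called (adjusted p = 0.267, 95% interval -1.20 to 0.29), and its sign turned under quantile normalization.

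Cd74, the invariant chain, showed the largest fitted change of the genes that rose, on the log2(TPM + 1) scale. The gene lies at chr18:60803848-60812652 on the plus strand. It was at 9.36, 4.74 and 5.93 TPM in GMPs, at 79.8, 88.8 and 80.3 TPM in preNeu and at 73.8, 101 and 118 TPM in matNeu. GMPs were far below both neutrophil groups, which overlapped. The log2 change was 3.49 ± 0.24 (SE, limma adjusted p = 1.07e-06) in preNeu and 3.70 ± 0.24 (adjusted p = 1.09e-07) in matNeu against GMP, or 12.4-fold and 14.6-fold. From preNeu to matNeu it differed by 0.21 (adjusted p = 0.468, 95% interval -0.32 to 0.74). The ratio of Cd74 to H2-Ab1 within a library was 0.351 to 0.505 in GMPs, with 1.36 to 2.00 in preNeu and 2.33 to 3.64 in matNeu, without overlap between groups.

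The 2 chains of the peptide editor H2-DM ran the other way. H2-DMa was at 153, 99.3 and 132 TPM in GMPs, at 12.0, 11.6 and 9.79 TPM in preNeu and at 3.32, 4.71 and 4.66 TPM in matNeu. H2-DMb1 was at 93.2, 63.8 and 94.5 TPM in GMPs, at 15.5, 17.7 and 15.1 TPM in preNeu and at 1.67, 1.82 and 3.56 TPM in matNeu. For both genes the 3 groups did not overlap, and each stage was below the one before it. H2-DMa fell by 3.40 on the log2 scale in preNeu (SE 0.21, limma adjusted p = 6.28e-07) and by 4.61 in matNeu (adjusted p = 9.51e-09) against GMP, which made it 11.5-fold and 30.3-fold lower by mean TPM. H2-DMb1 fell by 2.29 (SE 0.25, adjusted p = 2.80e-05) and by 4.68 (adjusted p = 2.94e-08), or 5.21-fold and 35.7-fold. Of the 2, H2-DMa lost more by preNeu, and H2-DMb1 lost more from preNeu to matNeu, where it fell by 2.39 (adjusted p = 1.13e-05) and H2-DMa by 1.22 (adjusted p = 0.000491, and 0.154 under quantile normalization); the difference between the 2 genes was not tested. The ratio of H2-DMb1 to H2-DMa was 0.610 to 0.715 in GMPs, with 1.29 to 1.54 in preNeu and 0.386 to 0.763 in matNeu.

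Ciita was the least abundant of the 7 genes. It was at 0.0522, 0 and 0.102 TPM in GMPs, at 0.864, 1.56 and 1.09 TPM in preNeu and at 0.757, 0.847 and 1.31 TPM in matNeu. The GMP libraries lay below all neutrophil libraries, and preNeu and matNeu overlapped. The fitted log2 change was 1.04 ± 0.25 (SE, limma adjusted p = 0.00423) in preNeu and 0.90 ± 0.25 (adjusted p = 0.0065) in matNeu against GMP, on a log2(TPM + 1) scale that understates changes of genes this low; with 0.1 TPM added in place of 1 the values were 3.09 and 2.85. By mean TPM the ratios were 22.9 and 18.9, above those of Cd74, but they rest on GMP values of at most 0.102 TPM. The preNeu to matNeu difference of -0.14 was not called (adjusted p = 0.651, 95% interval -0.69 to 0.41) and changed sign under both other scalings.

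From preNeu to matNeu, 0 of 7 genes were called higher, against 22.9% of all genes, and 3 of 7 lower (H2-Aa, H2-DMa, H2-DMb1), against 39.8%, while 62.8% of all genes were called in either direction. That count fell to 2 without preNeu replicate 1, without preNeu replicate 2, without matNeu replicate 1 and under median-of-ratios scaling, and to 1 under quantile normalization. Without matNeu replicate 3, 5 of 7 were called lower, H2-Ab1 (adjusted p = 0.0358) and H2-Eb1 (adjusted p = 0.0497) being added in limma. The TPM values of all genes moved as well, with a median log2 change over all genes tested of -0.52 in preNeu against GMP, -0.92 in matNeu against GMP and -0.32 in matNeu against preNeu. Relative to that median, the rise in preNeu against GMP was 3.06 for H2-Aa, 2.27 for H2-Ab1, 3.18 for H2-Eb1 and 4.01 for Cd74, and the fall was -2.88 for H2-DMa and -1.77 for H2-DMb1.

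**Figure D2:**
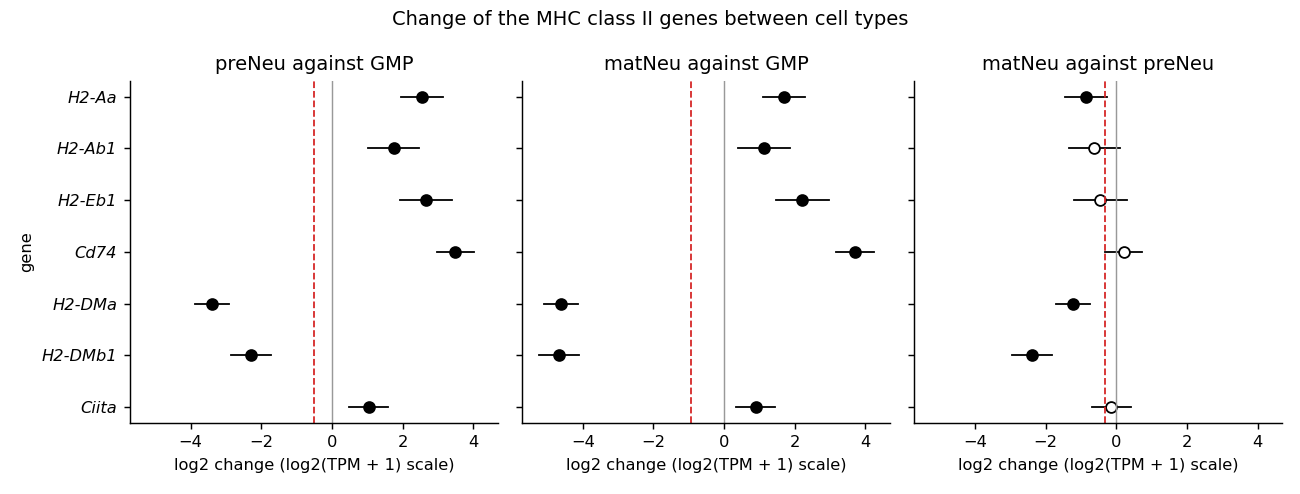
Log2 change of each gene in the 3 comparisons, from limma on log2(TPM + 1), with 95% intervals. Filled points passed an adjusted p of 0.05 and open points did not; the dashed line is the median over all 13061 genes, at -0.52, -0.92 and -0.32. H2-DMa and H2-DMb1 lie left of that line in all 3 panels, and the 5 other genes lie right of 0 in both comparisons with GMP.

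The order of the 7 genes changed between the cell types. In GMPs it was H2-DMa, H2-DMb1, H2-Ab1, Cd74, H2-Aa, H2-Eb1 and Ciita by mean TPM, with means of 128 ± 27.0 (SD, n = 3) TPM for the first and 83.8 ± 17.4 TPM for the second. Of the neighbours in that order, Cd74 and H2-Aa overlapped. In preNeu it was Cd74, H2-Ab1, H2-Aa, H2-Eb1, H2-DMb1, H2-DMa and Ciita, led by 83.0 ± 5.08 TPM of Cd74, and H2-Ab1 overlapped H2-Aa and H2-Eb1 overlapped H2-DMb1. In matNeu it was Cd74, H2-Ab1, H2-Aa, H2-Eb1, H2-DMa, H2-DMb1 and Ciita, led by 97.8 ± 22.4 TPM of Cd74, and the neighbours from H2-Ab1 to H2-Eb1 overlapped, as did the H2-DM chains. The ratio of H2-DMa to H2-Ab1 within a library was 7.85 to 9.36 in GMPs, with 0.189 to 0.244 in preNeu and 0.0917 to 0.164 in matNeu. H2-DMa thus exceeded H2-Ab1 only in the GMP libraries.

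Among the other class II genes, the chains of H2-O, an inhibitor of H2-DM, were also highest in GMPs. H2-Oa was at 14.7, 10.5 and 14.3 TPM in GMPs, 0.315 to 2.09 TPM in preNeu and 1.13 to 2.63 TPM in matNeu, and it fell by 2.63 on the log2 scale in preNeu against GMP (limma adjusted p = 0.000153). H2-Ob fell by 1.79 (adjusted p = 0.00153) in the same comparison; its lower value in matNeu than in GMP, by limma adjusted p = 0.00183, was not called under median-of-ratios scaling (0.058) or quantile normalization (0.676). H2-DMb2, a close copy of H2-DMb1 that may share reads with it, read 23.0, 10.8 and 24.7 TPM in GMPs and 29.8, 42.5 and 30.4 TPM in preNeu, a rise of 0.85 (adjusted p = 0.0295), and 11.7, 14.8 and 14.4 TPM in matNeu. H2-DMb2 was thus 0.169 to 0.262 times H2-DMb1 in GMPs, 1.93 to 2.41 times in preNeu and 4.05 to 8.14 times in matNeu. H2-Ea-ps, the remnant of the missing I-E alpha chain gene, was listed at 0 in all 9 libraries, and H2-Eb2 did not exceed 0.594 TPM in any. Of the 3 tested genes of this list, 1 was called higher and 2 lower in preNeu against GMP, 0 and 2 in matNeu against GMP, and 0 and 1 in matNeu against preNeu. Under quantile normalization the latter counts became 1 and 1, with H2-DMb2 called higher (log2 change 0.89, limma adjusted p = 0.0246), and 0 and 0, with its lower call lost (adjusted p = 0.102). Over all genes in the main fit, 14.7% were called higher and 44.3% lower in preNeu against GMP. The shares were 22.8% and 54.1% in matNeu against GMP, and 22.9% and 39.8% in matNeu against preNeu.

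The 7 factors that sit on the X and Y boxes (the RFX subunits, Creb1 and the NF-Y subunits) moved in both directions. In preNeu against GMP, 2 were called higher and 1 lower: Nfyb rose by 0.95 (limma adjusted p = 0.000283) and Rfxank by 0.53 (adjusted p = 0.04), whereas Rfxap fell by 1.06 (adjusted p = 0.0177) without passing under either other scaling. In matNeu against GMP, 0 were called higher and 5 lower, but 2 higher and 0 lower after median-of-ratios scaling and 3 higher and 1 lower after quantile normalization, so no direction is given for them. In matNeu against preNeu 0 were called higher and 2 lower, Nfyb by 1.66 and Nfyc by 0.76. The list median was -0.23, -0.97 and -0.76 in the 3 comparisons, beside -0.52, -0.92 and -0.32 for all genes. Of all genes, 14.7%, 22.8% and 22.9% were called higher in these comparisons, and 44.3%, 54.1% and 39.8% lower.

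Of 9 genes known to act on Ciita or in the signals that induce it, 7 were tested, with 2 called higher and 2 lower in preNeu against GMP, and 5 higher and 2 lower in matNeu against GMP. Under both other scalings 4 were called higher and 2 lower in preNeu against GMP. The interferon factor Irf8 was at 548, 509 and 483 TPM in GMPs, 10.8 to 13.9 TPM in preNeu and 6.93 to 19.2 TPM in matNeu, a log2 change of -5.26 in preNeu (limma adjusted p = 3.49e-07). Spi1, which encodes PU.1, rose by 1.08 (adjusted p = 0.0021) in the same comparison. In matNeu against preNeu 5 were called higher and 0 lower (5 and 1 under quantile normalization, with Ifngr1 lower), and Irf1 rose by 2.24 (adjusted p = 3.2e-07). Irf4 was at 0 TPM in each GMP library and did not exceed 1.46 TPM in any library.

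Genes that process antigen or act on finished class II molecules were called in both directions. Over all genes, 14.7% were called higher and 44.3% lower in preNeu against GMP, and 22.8% and 54.1% in matNeu against GMP. In matNeu against preNeu the shares were 22.9% and 39.8%. Of 8 endosomal proteases and processing genes, 1 was called higher and 4 lower in preNeu against GMP, 5 and 2 in matNeu against GMP, and 4 and 1 in matNeu against preNeu, but in preNeu against GMP the balance shifted to 4 higher and 3 lower after median-of-ratios scaling and to 3 and 3 after quantile normalization. Ctsd, an aspartic protease of the endosome, was 8.46-fold higher in matNeu than in GMPs (log2 change 3.08, limma adjusted p = 5.39e-09). Lgmn, which encodes an asparaginyl endopeptidase, rose by 2.70 (adjusted p = 0.00025) in preNeu against GMP. Of 7 turnover and co-stimulation genes, 4 were called higher and 1 lower in preNeu against GMP, 5 and 0 in matNeu against GMP, and 5 and 1 in matNeu against preNeu. Under both other scalings these were 5 and 1 in preNeu against GMP and 5 and 0 in matNeu against preNeu, where the call of March8 was lost. March1, a ubiquitin ligase that removes class II molecules from the surface, was at 2.05, 1.26 and 0 TPM in GMPs, 11.7 to 12.2 TPM in preNeu and 100 to 124 TPM in matNeu. Cd86, a ligand of CD28, stood at 1.44 to 1.72 TPM in GMPs and at 38.7 to 44.4 TPM in matNeu (log2 change 4.04, adjusted p = 6.3e-08). Cd40 was not called in any of the 3 comparisons (log2 changes -0.14, -0.29 and -0.15).

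Markers of other cells that carry class II molecules were measured beside these genes. Of 7 B cell markers, 5 were called higher and 1 lower in preNeu against GMP, 6 and 1 in matNeu against GMP, and 4 and 0 in matNeu against preNeu. Over all genes, 14.7%, 22.8% and 22.9% were called higher in these comparisons, and 44.3%, 54.1% and 39.8% lower. Under both other scalings the counts were 5 and 1, 6 and 0, and 6 and 0. Cd79a, a signalling chain of the B cell receptor, was at 0.207, 0.603 and 0 TPM in GMPs, 5.68, 8.58 and 6.69 TPM in preNeu and 16.2, 18.6 and 33.1 TPM in matNeu. Pax5, Ebf1 and Ly6d were at 0 in every GMP library. The summed B cell marker level was 78.9 to 94.5 TPM in GMPs, most of it Cd79b at 77.9 to 93.7 TPM, 30.2 to 48.8 TPM in preNeu and 75.2 to 161 TPM in matNeu. In matNeu, replicate 1 was the lowest library for 4 of 4 of H2-Aa, H2-Ab1, H2-Eb1 and Cd74 and for 4 of 7 B cell markers, and replicate 3 was the highest for 4 of 4 and for 5 of 7. In preNeu, replicate 1 was the lowest library for 6 of 7 B cell markers but for 1 of those 4 class II genes. The ratio of H2-Aa to Cd79a was 4.01 to 7.08 in preNeu and 0.734 to 1.26 in matNeu, and that of Cd74 to Cd79a 10.4 to 14.1 and 3.57 to 5.43, without overlap in either case. The part of B cells in the class II values was not tested.

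The 8 monocyte and macrophage markers did not move as 1 group. The complement genes C1qa and C1qb were highest in preNeu, whereas the receptor genes Ccr2 and Cx3cr1 were highest in GMPs and Csf1r was lowest in preNeu, with means of 204, 13.8 and 304 TPM in GMPs, preNeu and matNeu. Ccr2 had means of 127, 3.61 and 0.573 TPM, Cx3cr1 of 25.8, 1.51 and 0.853 TPM and Adgre1 of 12.3, 11.4 and 83.8 TPM. C1qa was at 0.318, 1.85 and 2.09 TPM in GMPs, 23.9, 22.7 and 28.1 TPM in preNeu and 6.22, 7.22 and 6.60 TPM in matNeu, and C1qb at 34.8 to 42.0 TPM in preNeu and at most 11.9 TPM elsewhere. Of the 8 monocyte and macrophage markers, 3 were called higher and 4 lower in preNeu against GMP, and 3 and 3 in matNeu against GMP, with summed levels of 2945 to 3617 TPM in GMPs, 1732 to 2266 TPM in preNeu and 1145 to 1507 TPM in matNeu, most of it Ly6c2. Of 8 markers of conventional dendritic cells 5 were tested, with 0 called higher and 2 lower in preNeu against GMP and 2 and 2 in matNeu against GMP, and summed levels of 26.6 to 35.8, 4.78 to 12.0 and 34.7 to 56.8 TPM. The shares over all genes were 14.7% higher and 44.3% lower in preNeu against GMP, and 22.8% and 54.1% in matNeu against GMP. Itgax, which encodes CD11c, was at 0 TPM in GMPs, 0.137 to 1.32 TPM in preNeu and 27.7 to 49.0 TPM in matNeu. Flt3 and Clec10a ran the other way, with means of 12.4, 1.98 and 0.907 TPM and of 15.5, 1.38 and 1.03 TPM, and the dendritic cell factor Batf3 was at most 0.212 TPM and Xcr1 at most 0.927 TPM in any library. The summed levels of 5 plasmacytoid dendritic cell markers were 55.7 to 63.0, 12.2 to 15.5 and 36.0 to 41.3 TPM, and those of 5 T and NK cell markers 461 to 613, 217 to 252 and 8.99 to 16.0 TPM, most of the latter Nkg7, while Cd3e did not exceed 0.101 TPM. The part of these cells in the class II values was not tested.

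**Figure D3:**
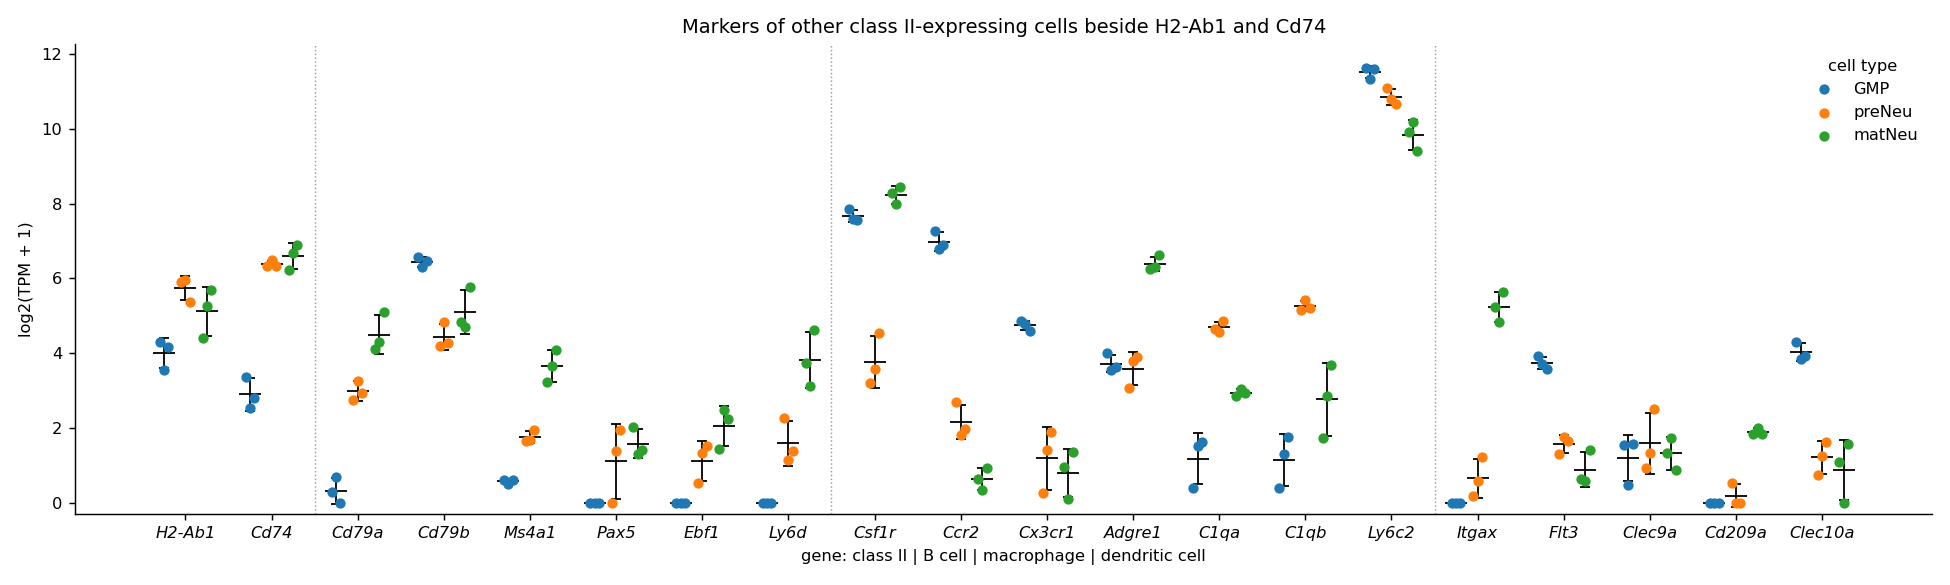
H2-Ab1 and Cd74 beside B cell, monocyte and macrophage, and conventional dendritic cell markers in the 9 libraries, on the log2(TPM + 1) scale. Each point is 1 library, and bars give the mean and SD of 3 libraries. Cd79a, Ms4a1 and Ly6d step up from GMP to preNeu to matNeu by their means, whereas Cd79b is lower in preNeu than in GMP. C1qa and C1qb are highest in preNeu, and Csf1r is lowest there. Ccr2, Cx3cr1, Flt3 and Clec10a are highest in GMP, and Adgre1 and Itgax are highest in matNeu.

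CHD4 peaks were found in or within 10 kb of 4 of the 7 genes in WT GMPs, against 32.4% of 21951 protein-coding genes. Of the 8 peaks, 5 lay at Ciita and 1 each at H2-Eb1, H2-DMa and H2-DMb1, and none at H2-Aa, H2-Ab1 or Cd74. 8.33% of protein-coding genes had 5 or more peaks in such a window, which for Ciita includes a gene body of 48360 bases. Each list comes from 1 library, so differences between lists have no replicate check and no test.

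The strongest of these CHD4 peaks covered the annotated start of Ciita. It lay at chr16:10479837-10480272 with a fold enrichment over background of 18.3, above 86.9% of all 35790 peaks of the list. A peak at chr16:10475941-10476263, upstream of the gene with its summit at -3966, reached 11.5-fold, and a peak at chr16:10487747-10488278 in an intron, which also covers a further annotated start of Ciita, reached 11.2-fold. The remaining peaks, at chr16:10481474-10481646 and chr16:10489132-10489356, were intronic and reached 4.65-fold and 7.38-fold. At the other genes the peaks were intronic and weak in rank, at chr17:34312313-34312530 in H2-Eb1 (5.49-fold, above 22.2% of the list), chr17:34123438-34123656 in H2-DMa (5.29-fold, above 21.3%) and chr17:34156975-34157338 in H2-DMb1 (5.05-fold, above 16.2%). The H2-DMa site lies within a wide H3K4me2 peak, described below, that also lies over Brd2. Which gene the site belongs to was not tested.

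In the Gfi1-/- GMPs, 0 of the 7 genes had a CHD4 peak in or within 10 kb, against 10.2% of protein-coding genes. Thus 0 of the 8 WT sites were overlapped by a peak of the Gfi1-/- list, and over all WT sites 81.5% were not overlapped. Sites of like strength were rarely kept for the weaker peaks and more often for the stronger ones: in the tenth of all WT sites by fold enrichment to which each belongs, 49.9% were kept for the peak at the Ciita start, 20.7% for the 11.5-fold and 11.2-fold peaks, and 0.643% to 3.91% for the others. The Gfi1-/- list is the shorter, with 7316 peaks against 35790. When the window was widened to 20 kb, 1 of 12 WT sites was kept, a 15.3-fold peak at chr17:34239682-34240420 upstream of H2-Ab1.

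The stretch upstream of Ciita is shown because it is the strongest CHD4 site at these genes outside annotated exons. It is read on the plus strand of GRCm38.p6 at chr16:10475943-10476242, the 300 bases around the summit, and holds neither AAATCA, the core of the GFI1 motif, nor GAGGAAGT, a core bound by PU.1, on either strand, so nothing is in capitals.
Ciita upstream CHD4 site: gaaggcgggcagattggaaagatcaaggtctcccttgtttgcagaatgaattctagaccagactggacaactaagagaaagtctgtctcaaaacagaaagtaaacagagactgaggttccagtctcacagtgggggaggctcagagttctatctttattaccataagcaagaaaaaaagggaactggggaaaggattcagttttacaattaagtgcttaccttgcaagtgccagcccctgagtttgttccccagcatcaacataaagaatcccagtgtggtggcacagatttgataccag

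Over the 8 CHD4 sites, AAATCA was present in 2 windows of 300 bases around the summit, those of the 4.65-fold and 7.38-fold peaks of Ciita, and GAGGAAGT in 0. Over 35728 such windows of the WT list, 18.9% held AAATCA and 13.3% GAGGAAGT.

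**Figure D4:**
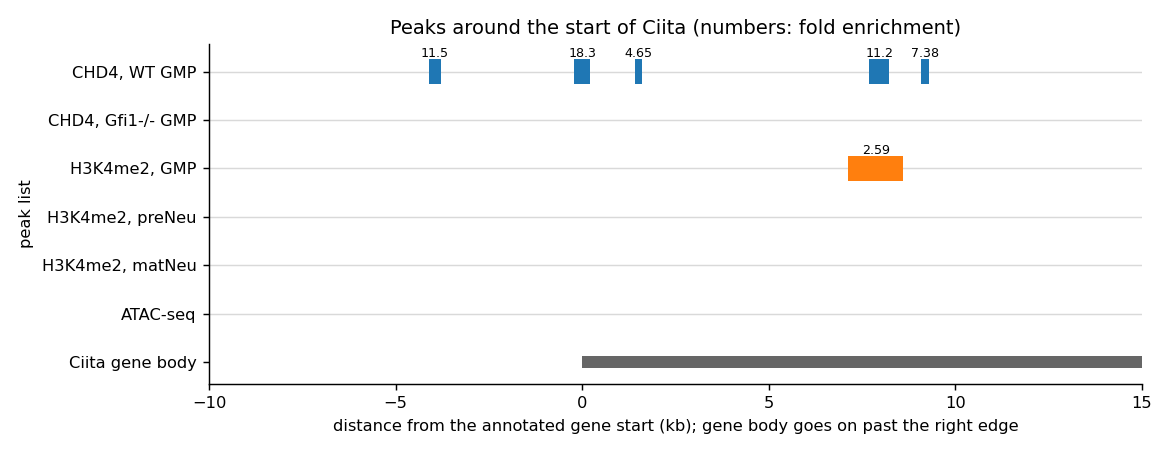
Peaks around the start of Ciita, by distance from the annotated gene start in kb. Bars show each peak's extent and numbers its fold enrichment. The 5 CHD4 peaks of WT GMPs, from 4.65-fold to 18.3-fold, have no counterpart in Gfi1-/- GMPs, and 1 weak H3K4me2 peak appears in GMPs only.

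H3K4me2, a mark of active and poised promoters and enhancers, was found at all 7 genes in GMPs and at 6 of 7 in preNeu and in matNeu, against 73.6%, 74.1% and 72.0% of protein-coding genes. Because windows of neighbouring genes overlap, each peak was counted once, giving 14 peaks in GMPs, 14 in preNeu and 12 in matNeu. With a −log10 q of at least 5 required, 3 peaks at 2 genes (H2-Ab1 and H2-DMa) were left in GMPs, 10 at 5 genes in preNeu and 7 at 5 genes in matNeu, with none at H2-Aa or Ciita. The lists differ in strength as a whole, with a median fold enrichment of 2.89 in GMPs, 4.55 in preNeu and 3.78 in matNeu, and the percentile of a peak in its own list is therefore given beside its fold.

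At H2-Ab1 an H3K4me2 peak with its middle in an intron covered 4 of the 7 annotated starts in each cell type. It was 4.71-fold in GMPs, 14.6-fold in preNeu and 8.13-fold in matNeu, at percentiles 97.8, 98.4 and 83.8. It was thus among the strongest of its list already in GMPs, where the mRNA of H2-Ab1 was lowest. At H2-Eb1 a peak over a coding exon, which also covers 1 annotated start, was 2.72-fold, 8.19-fold and 9.01-fold, at percentiles 38.1, 75.3 and 89.1. At Cd74 an intronic peak was 2.92-fold, 4.36-fold and 4.66-fold, at percentiles 51.6, 47.8 and 60.8, so its rank changed little while its mRNA rose.

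H2-Aa carried a weak peak over its start in GMPs (chr17:34287520-34288189, 2.61-fold) that was not listed in preNeu or matNeu. A more distant peak upstream of H2-Aa, which lies between it and H2-Eb1, was 2.56-fold, 3.91-fold and 2.82-fold. Ciita had 1 peak in GMPs, 2.59-fold at chr16:10487192-10488665, and none in preNeu or matNeu, although its mRNA was detected at higher levels there. That peak overlaps the intronic 11.2-fold CHD4 site.

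The H2-DM genes kept H3K4me2 peaks in the cells where their mRNA was lowest. The wide peak over the start of H2-DMa, which also lies over Brd2, was 3.72-fold in GMPs, 16.7-fold in preNeu and 11.4-fold in matNeu, at percentiles 83.9, 99.5 and 97.2, and which of the overlapping genes it belongs to was not tested. An intronic peak near the 3′ end of H2-DMa covered 1 annotated start of the gene in GMPs, 3 in preNeu and 2 in matNeu. It was 4.68-fold, 11.1-fold and 7.53-fold and moved down in rank, at percentiles 97.7, 90.0 and 80.0. At H2-DMb1 the peak nearest the start was 2.81-fold, 3.71-fold and 2.91-fold, also moving down, at percentiles 45.0, 38.4 and 29.2. Its −log10 q was 2.21, 4.41 and 2.41, below the limit of 5 in each list. In matNeu the only peak of the H2-DMb1 window past that limit was the upstream peak shared with the H2-DMa window.

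**Figure D5:**
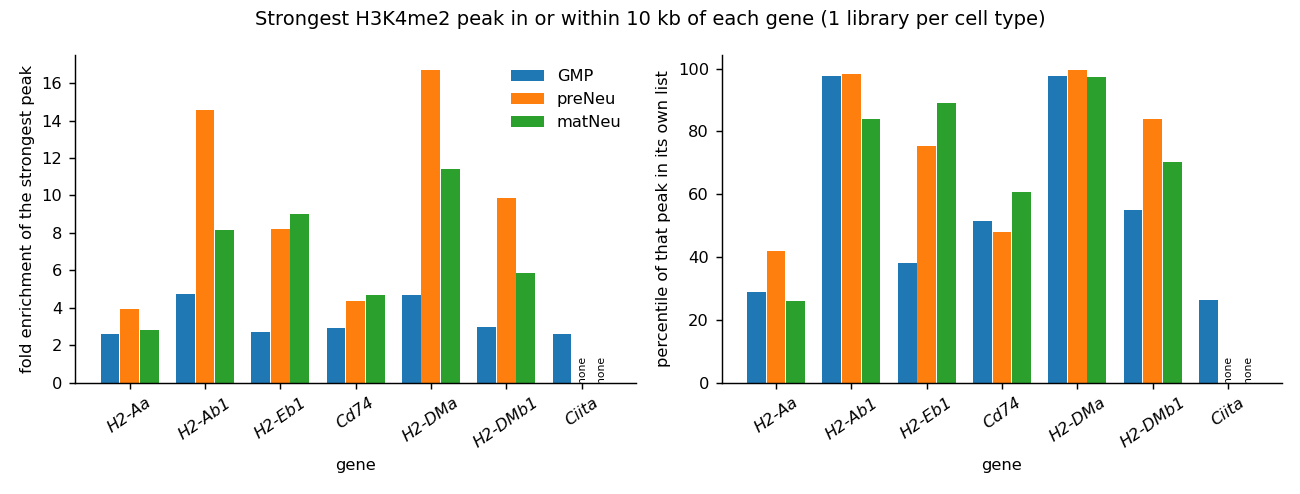
Strongest H3K4me2 peak in or within 10 kb of each gene, by fold enrichment (left) and by percentile in its own list (right), with 1 library per cell type. H2-Ab1 and H2-DMa stand at or above percentile 83.8 in all 3 cell types, H2-Eb1 goes from 38.1 to 89.1, and Ciita has no peak in preNeu or matNeu. The H2-DMb1 bar is a peak it shares with the H2-DMa window. Bars of 1 gene need not be the same peak. For H2-DMa it is the peak near the 3′ end in GMPs and the peak over the start in the others. For H2-Aa it is the peak over the start in GMPs and the more distant one in the others.

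Of the 8 CHD4 sites, 2 overlapped an H3K4me2 peak of GMPs, against 37.8% of all WT CHD4 sites, 2 one of preNeu, against 59.5%, and 1 one of matNeu, against 52.5%. ATAC-seq peaks, which mark open chromatin, were listed at H2-DMa (2 peaks, up to 6.45-fold) and Cd74 (2 peaks, up to 3.89-fold) and at no other of the 7 genes, against 52.9% of protein-coding genes. The 6.45-fold peak lies within the wide H3K4me2 peak that H2-DMa shares with Brd2, and which gene it belongs to was not tested. The other peak of H2-DMa, at 5.07-fold, covers 2 annotated starts near the 3′ end of that gene. The preNeu and matNeu ATAC-seq lists hold identical values and were used as 1 list, so they cannot be assigned to a cell type. None of the 8 CHD4 sites overlapped an ATAC-seq peak, against 10.1% of all WT sites. Chd4 mRNA was at 71.4 to 86.2 TPM in GMPs, 36.5 to 49.1 TPM in preNeu and 26.8 to 35.2 TPM in matNeu, and Gfi1 mRNA at 5.88 to 17.5, 20.1 to 29.2 and 0 to 0.145 TPM.

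By Pearson's r over the 9 libraries on the log2(TPM + 1) scale, the 5 genes most like the mean of the 7 were Tmco3 (0.964), Evi5 (0.940), Rps6ka5 (0.928), Rap1a (0.927) and Nudt7 (0.925), out of 10047 genes that reached 10 TPM in a library. Their means were highest in preNeu, with 30.4, 97.9 and 32.4 TPM of Tmco3 in GMPs, preNeu and matNeu. The mean of the 7 genes combines groups that ran in opposite directions, and the 9 libraries form 3 cell types.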

How the data were processed

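RNA-seq, ChIP-seq and ATAC-seq of sorted mouse bone marrow cells were used. The authors deposited TPM values per gene for 9 libraries. Per the labels, reads were handled with Trimmomatic 0.36, BWA 0.7.17 and kallisto 0.44.0, among others, and the methods also name TopHat; which step gave the TPM values is not given in the sources used here, and neither is the strand setting. The authors called peaks with MACS2 2.1.0 on mm10, and the deposited lists give fold enrichment and −log10 q values, 1 library per list. The deposited GFI1 and H3K4me3 lists were not used, since 3105 and 2179 of their peaks end beyond the mouse chromosomes.

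Groups came from sample titles. Genes reaching 1 TPM in 3 or more libraries (13061 of 34896) were kept, and log2(TPM + 1) values were compared with limma 3.58.1 (R 4.3.3), with a variance trend and 1 fit over all 9 libraries, and p-values were adjusted by Benjamini-Hochberg over all genes tested. The threshold was 0.05. Fits were tested on simulated data. The study used a count-based test, which TPM does not allow. Peaks were assigned to a gene when in it or within 10 kb, by GENCODE M21 coordinates, and a CHD4 site counted as kept with an overlap of 1 base. Promoters came from the RefSeq table of GRCm38.p6, and other sequence from its genome with samtools 1.23.1.

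All 7 genes were named, other lists by counts with examples of the highest level or the largest called change, and the 5 most correlated genes. The genes and the lists were chosen with earlier results of these data known. Alternatives were other pseudocounts, filters, scalings, fits, windows and q limits and each library left out. H2-Ea and Ifi30 were not matched by symbol, and March1 and March8 were matched by these older symbols.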

Additional observations from a re-analysis of the deposited data

How the results depend on the processing

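The counts of genes called in preNeu and in matNeu against GMP were 7 of 7 in each alternative but the following: 6 with at least 5 TPM required in 3 libraries, where Ciita was not tested, and 5 when a log2 change past 1 was required, where H2-Ab1 and Ciita were lost. The count in matNeu against preNeu was 3, became 2 under median-of-ratios scaling, 1 under quantile normalization and 1 when a log2 change past 1 was required, and ranged from 2 to 5 when 1 library was left out, with 5 without matNeu replicate 3. In that comparison the log2 change of Ciita turned to 0.055 under median-of-ratios scaling and 0.20 under quantile normalization, and that of H2-Eb1 to 0.21 under quantile normalization. Requiring a log2 change past 1 reduced the calls over all genes from 7706 to 2582, from 10041 to 6510 and from 8197 to 3898 in the 3 comparisons. The share of all calls that were higher went from 25% to 45.1% and 48.1% (preNeu against GMP), from 29.6% to 45.2% and 50.2% (matNeu against GMP) and from 36.5% to 47.2% and 50.3% (matNeu against preNeu) under median-of-ratios scaling and quantile normalization; the cause was not tested.

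With the replicate number as a block, the counts were 7, 7 and 3. The samples share only a number: deviations of same-numbered libraries correlated by -0.04 to 0.12, and 2 of 9 libraries correlated best with their own number.

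Within 20 kb instead of 10 kb, 1 CHD4 peak of Gfi1-/- GMPs and 7 ATAC-seq peaks were counted, and 1 WT site was kept. At −log10 q of at least 5, H3K4me2 peaks numbered 3 in GMPs, 10 in preNeu and 7 in matNeu, and ATAC-seq peaks 2. Depth is unknown for the TPM values, which limits what can be said of Ciita, and 1 library per peak list leaves the absence of a peak without a replicate check.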

Other observations

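The MHC class I genes, which present peptides from inside the cell, were measured beside the class II genes. In matNeu against preNeu, 7 of 7 were called higher by limma, against 22.9% of all genes, and 6 of 7 under quantile normalization, where B2m was not called. H2-D1 rose by 2.87 (adjusted p = 2.7e-09) and H2-K1 by 1.40 (adjusted p = 6.2e-06). In preNeu against GMP 0 were called higher and 4 lower (2 and 3 under median-of-ratios scaling), and in matNeu against GMP 3 higher and 0 lower (7 and 0 under that scaling). In the main fit, 14.7% of all genes were called higher and 44.3% lower in preNeu against GMP. For matNeu against GMP the shares were 22.8% and 54.1%. Nlrc5, the class I counterpart of Ciita, was at 21.4, 24.7 and 24.5 TPM in GMPs, 2.58, 4.18 and 4.07 TPM in preNeu and 19.4, 16.7 and 19.1 TPM in matNeu. The summed TPM of H2-Aa, H2-Ab1 and H2-Eb1 over that of H2-K1 and H2-D1 was highest in preNeu, at 0.0391 to 0.0614, against 0.00589 to 0.00844 in GMPs and 0.00369 to 0.00719 in matNeu.

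The ratio of H2-DMa and H2-DMb1 to the H2-O chains, by summed TPM, was 5.63 to 7.81 in GMPs, with 2.91 to 6.31 in preNeu and 0.808 to 1.13 in matNeu. H2-DMb2 was left out of this ratio, although its means were 19.5, 34.2 and 13.6 TPM in GMPs, preNeu and matNeu. In both neutrophil groups these exceeded H2-DMb1, so the ratio does not describe all H2-DM transcripts. Likeness was also computed for subsets chosen after their values were seen. The genes most like H2-DMa and H2-DMb1 together were Phb2 (r = 0.998), Fbxo21 (0.997), Slc39a6 (0.996), Sod2 (0.995) and Rtraf (0.995), and those most like H2-Aa, H2-Ab1, H2-Eb1 and Cd74 were Agap1 (0.982), Olfm4 (0.979), Efhd2 (0.978), Id1 (0.978) and Dgkg (0.976), each over 9 libraries of 3 cell types on the log2(TPM + 1) scale.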
